A study of Bos taurus with 10 samples.

Results

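The 44 genes described here encode proteins of heterochromatin, the Polycomb complexes and the enzymes that modify or move nucleosomes, together with the telomere protein TERF1. They were taken by symbol from a list, and all 44 were found once in the table of 28700 genes kept. All 44 also reached a mean of at least 1 FPKM (fragments scaled to transcript length and library size), the filter that 11761 genes passed for testing. The list held 9 genes of HP1 and H3K9 methylation, 8 of Polycomb and 6 histone demethylases. It also held 6 genes of H3K4, H3K36 and H3K79 methylation, 4 deacetylases, 4 acetyltransferases, 6 nucleosome remodelling subunits and TERF1.

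Heterochromatin protein 1 (HP1) binds histone H3 methylated on lysine 9 (H3K9), a mark that SETDB1, the SUV39H enzymes and the EHMT enzymes place, and holds chromatin in a compact and silent state. Polycomb repressive complex 2 methylates lysine 27 of histone H3, Polycomb repressive complex 1 adds ubiquitin to histone H2A, and both keep developmental genes silent. Early mammalian embryos are known for a wide rebuilding of these marks while the embryonic genome is switched on, and linker histones such as H1FOO bind the nucleosomes that all these proteins act on.

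Messenger RNA was sequenced from cattle (Bos taurus) embryos whose zygotes had received small interfering RNA (siRNA), a short RNA that directs the decay of its matching transcript. KD morulae (3 libraries) and KD 8/16-cell embryos (2 libraries) had received siRNA to H1FOO, which encodes the oocyte's linker histone. NC morulae (3 libraries) and NC 8/16-cell embryos (2 libraries) had received a negative control siRNA, so all embryos had been injected. Morulae were collected 5.5 days and 8/16-cell embryos 4 days after insemination. The labels do not say how many embryos a library pooled or whether the replicates came from separate collections, so a p-value reflects the spread among the libraries alone, which may be technical. In RNA from whole embryos, fewer cells of a type and less RNA per cell cannot be told apart.

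The summed FPKM ran from 345464 to 669836 per library, and 11103 to 11872 genes reached 1 FPKM. Read depth is unknown beyond a rough relative range of 0.707 to 1.43, read from the commonest ratio of the smallest values to NC 8/16-cell replicate 1. Few genes shared that ratio, 50 of 401 compared for KD morula replicate 3 (0.707) and 63 of 628 for KD morula replicate 1 (1.43). H1FOO was at 0.061, 0.191 and 0.251 FPKM in KD morulae and 0.294, 1.05 and 2.17 FPKM in NC morulae, and at 0.649 and 0.0736 FPKM in KD 8/16-cell embryos and 50.8 and 10.8 FPKM in NC 8/16-cell embryos. The target was thus lowest in the KD libraries at both stages, though it was low in every morula. By the limma test described below it differed by -0.80 on the log2 scale in morulae (limma adjusted p = 0.374). At the 8/16-cell stage it differed by -4.22 (limma adjusted p = 0.104), so neither difference passed. Markers of the early embryo (11 genes) summed to 953 to 1177 FPKM in KD morulae, 1058 to 1358 FPKM in NC morulae, 894 to 919 FPKM in KD 8/16-cell embryos and 894 to 1093 FPKM in NC 8/16-cell embryos. Within that sum 5 genes had KD and NC morulae that did not overlap. The trophectoderm factors CDX2 and GATA3 were lower in KD morulae, CDX2 at 1.23 to 2.34 FPKM in KD and 6.13 to 11.7 FPKM in NC, and GATA3 at 0.583 to 1.09 FPKM in KD and 2.24 to 7.99 FPKM in NC. NANOG, KLF17 and ARGFX were higher, NANOG, a factor of the pluripotent cells, at 25.4 to 39.0 FPKM in KD and 6.48 to 18.8 FPKM in NC. At the 8/16-cell stage 4 of the 11 genes, SOX2, GATA3, TFAP2C and KRT18, were lower in KD embryos without overlap, and 0 were higher. Of all genes tested 13.9% were lower and 19.3% higher in KD 8/16-cell embryos without overlap. KRT18 was at 3.60 and 2.37 FPKM in KD and 13.4 and 13.0 FPKM in NC 8/16-cell embryos. The part of such embryo differences in the values of the 44 genes at either stage was not tested. Oocyte markers (10 genes, H1FOO among them) summed to 16.7 to 32.7 FPKM in KD morulae, 16.3 to 27.2 FPKM in NC morulae, 132 to 173 FPKM in KD 8/16-cell embryos and 152 to 279 FPKM in NC 8/16-cell embryos. The lower H1FOO values of the KD libraries are therefore part of the KD and NC contrast in these sums, above all at the 8/16-cell stage. Of the 14 cumulus and granulosa cell markers FSHR was at 0 in all 10 libraries, and their sum was 61.5 to 132 FPKM in KD morulae, 71.8 to 85.0 FPKM in NC morulae, 160 to 161 FPKM in KD 8/16-cell embryos and 91.4 to 97.1 FPKM in NC 8/16-cell embryos. SERPINE2 was the highest of the 14 in every morula but KD replicate 3. It was at 23.4 to 45.9 FPKM in KD and 45.0 to 75.8 FPKM in NC morulae. VIM was at 3.44 to 43.3 FPKM in KD and 0.346 to 5.42 FPKM in NC morulae. At each replicate number SERPINE2 was lower and VIM and CYP11A1 were higher in KD morulae. Without overlap COL1A1 was higher and CYP19A1 lower. The morula sums therefore do not show that these markers were alike in KD and NC. The embryo markers were therefore present in every library, while oocyte and cumulus markers differed between stages and, at the 8/16-cell stage, the sum of the cumulus markers was higher in KD embryos.

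The 44 genes were expressed at well above the middle of the transcriptome. The median of their mean levels was 29.7 FPKM, against 9.34 FPKM over all genes tested. TRIM28, the corepressor that zinc finger proteins use to bring SETDB1 to DNA, was the highest, with a mean of 392 FPKM. It was at 530, 450 and 616 FPKM in KD morulae and 430, 320 and 577 FPKM in NC morulae, and at 256 and 243 FPKM in KD 8/16-cell embryos and 264 and 230 FPKM in NC 8/16-cell embryos. Every morula library was above every 8/16-cell library, while KD and NC overlapped at each stage.

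SMARCA5, the motor of the ISWI remodellers that space nucleosomes, followed with a mean of 117 FPKM. Its levels were 104, 105 and 97.4 FPKM in KD morulae and 115, 165 and 110 FPKM in NC morulae, and 111 and 115 FPKM in KD 8/16-cell embryos and 133 and 116 FPKM in NC 8/16-cell embryos. The KD libraries lay below the NC libraries at both stages, by a margin that did not pass the test at either. The third was the deacetylase HDAC1, with a mean of 97.2 FPKM, and 13 of the 44 genes had means above 50 FPKM.

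At the other end stood 5 genes with means under 10 FPKM. The lowest was SUV39H2, one of a pair of paralogs that place H3K9 trimethylation, with a mean of 2.80 FPKM. KMT2A, an H3K4 methyltransferase, had a mean of 4.68 FPKM, and KDM6B, a demethylase of the Polycomb mark, had 4.71 FPKM. KMT2A was at 3.03, 6.35 and 4.10 FPKM in KD morulae and 3.11, 5.78 and 3.34 FPKM in NC morulae, and at 4.40 and 6.71 FPKM in KD 8/16-cell embryos and 5.25 and 4.77 FPKM in NC 8/16-cell embryos. Its KD and NC values overlapped at each stage, and in both treatments replicate 2 was the highest morula.

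**Figure D1:**
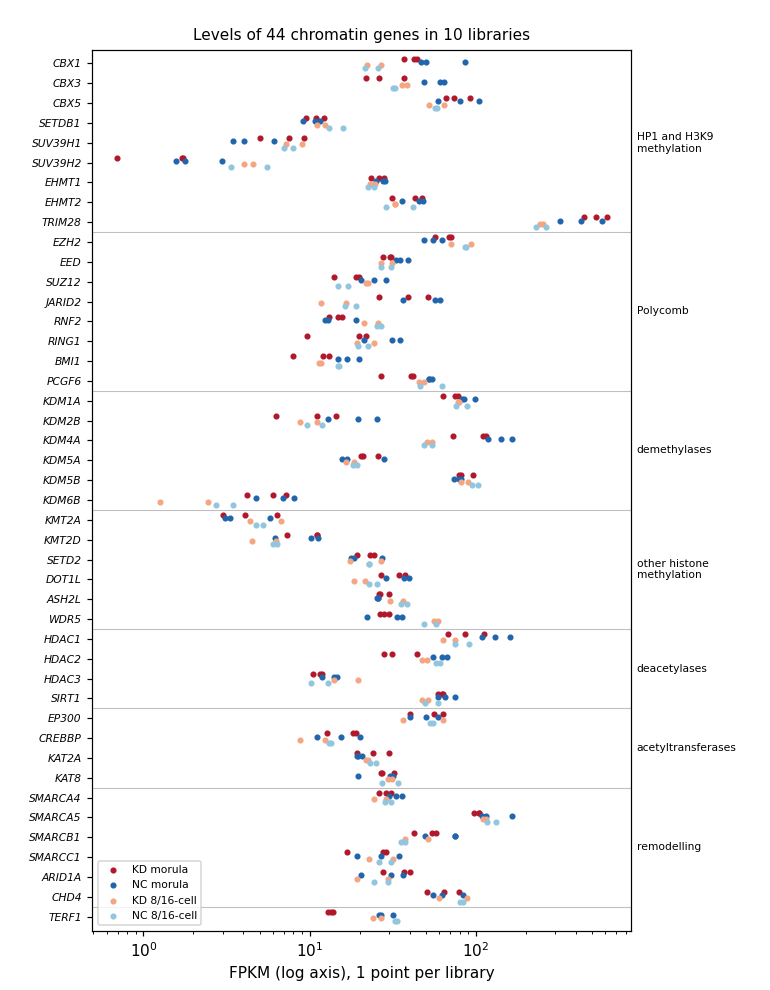
FPKM of the 44 genes in each of the 10 libraries, by role, on a log axis; each point is 1 library, and colours mark KD and NC embryos of each stage. TRIM28 lies highest, with a mean of 392 FPKM, and SUV39H2 lowest, with a mean of 2.80 FPKM.

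The first question was which of these genes changed with the knockdown in morulae. CBX3, which encodes HP1 gamma, and TERF1, which binds the telomere repeat within the shelterin complex, fell in KD morulae, 2.05-fold and 2.02-fold on the log2(FPKM + 1) scale. No gene of the list rose. Each gene was tested with limma on log2(FPKM + 1), fitted to all 10 libraries, with Benjamini-Hochberg adjustment over all 11761 genes and a threshold of 0.05. By that rule 2 of 44 genes passed, both lower. Of all genes tested 0.697% passed in either direction, 0.553% lower and 0.145% higher. The list was chosen with earlier results of these data known, so its counts are not an independent comparison with all genes. At an unadjusted p under 0.05 the list held 12 genes, or 27.3%, against 2491 of all genes tested, or 21.2%.

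CBX3 had 36.8, 26.3 and 21.9 FPKM in KD morulae, against 61.2, 48.9 and 64.1 FPKM in NC morulae. The means were 28.3 ± 7.65 FPKM in KD morulae and 58.1 ± 8.09 FPKM in NC morulae (SD, n = 3 each). The highest KD library lay below the lowest NC library, so the groups did not overlap. The log2 difference was -1.03 (SE 0.20), with a limma adjusted p of 0.0468. That call was close to the threshold: over 21 alternative settings the adjusted p ran from 0.00892 to 0.332, it passed in 4 of them, and the log2 difference stayed between -1.23 and -0.80.

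TERF1 had 13.8, 13.0 and 13.5 FPKM in KD morulae, against 27.1, 31.8 and 26.1 FPKM in NC morulae. The means were 13.4 ± 0.433 FPKM in KD morulae and 28.3 ± 3.08 FPKM in NC morulae (SD, n = 3 each). The 3 KD libraries stood close together and far below the NC libraries, with no overlap. On the log2 scale TERF1 differed by -1.02 (SE 0.14), with a limma adjusted p of 0.0278. Over the same 21 alternatives the adjusted p ran from 0.00521 to 0.31, it passed in 9, and the log2 difference stayed between -1.08 and -0.89.

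The replicate numbers were taken to pair the morula libraries, since same-numbered KD and NC libraries deviated together across genes. This pairing was chosen from the same expression values and has no other source, so every p-value with the block depends on it. With the replicate number as a block in the limma fit, 8 of 44 genes passed, all lower in KD morulae. They were CBX3, TERF1, RING1, BMI1, KDM2B, KDM4A, HDAC1 and HDAC2. Under that fit 11.9% of all genes tested passed, 8% lower and 3.89% higher. The adjusted p was 0.00892 for CBX3 and 0.00521 for TERF1 with the block. With the block and fewer libraries, none of the 44 genes passed without both morulae numbered 1 or without both numbered 3 (13 and 12 at an unadjusted p under 0.05), and 3 passed without both numbered 2. The log2 differences then lay at -1.19, -0.80 and -1.11 for CBX3 and -1.07, -1.08 and -0.91 for TERF1, without the pairs numbered 1, 3 and 2 in turn.

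Class I deacetylases, which remove acetyl groups from histones in the NuRD, Sin3 and CoREST complexes, included HDAC2, the gene next lowest after CBX3 and TERF1. HDAC2 had 44.1, 31.4 and 28.1 FPKM in KD morulae, against 66.8, 62.9 and 55.4 FPKM in NC morulae. All 3 KD libraries lay below all 3 NC libraries, with a log2 difference of -0.84 (SE 0.18). The limma adjusted p was 0.0617 without and 0.00823 with the block. HDAC1 had 112, 86.8 and 68.2 FPKM in KD morulae, against 162, 130 and 109 FPKM in NC morulae. The highest KD library, replicate 1, lay just above the lowest NC library, replicate 3, while within each numbered pair the KD library was the lower. On the log2 scale it differed by -0.59 (SE 0.21), with a limma adjusted p of 0.155 without and 0.0182 with the block. HDAC3, the deacetylase of the NCoR complexes, differed by -0.23 on the log2 scale (limma adjusted p = 0.471), and the NAD-dependent deacetylase SIRT1 by -0.10 (limma adjusted p = 0.732).

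Of the 8 Polycomb genes 7 had negative log2 differences, with a median of -0.44, and none passed without the block. RING1 and BMI1, the ubiquitin ligase and a partner subunit of Polycomb repressive complex 1, passed with it. The 29 further Polycomb genes tested, from the wider lists given below, lay the other way, with a median of 0.06 and 11 negative. With the block 2 of those 29 passed, both higher in KD morulae. RING1 had 19.9, 21.9 and 9.67 FPKM in KD morulae, against 34.9, 31.1 and 21.2 FPKM in NC morulae. KD replicate 2 lay just above NC replicate 3, and KD replicate 3 was far the lowest. RING1 differed by -0.78 on the log2 scale (SE 0.29), with a limma adjusted p of 0.163 without and 0.0177 with the block.

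BMI1 had 13.1, 12.0 and 7.91 FPKM in KD morulae, against 19.7, 16.9 and 14.9 FPKM in NC morulae. The groups did not overlap, and replicate 3 was the lowest library in each. BMI1 differed by -0.61 on the log2 scale (SE 0.20), with a limma adjusted p of 0.12 without and 0.0328 with the block. PCGF6, which takes the place of BMI1 in a variant of the complex, had 40.8, 42.2 and 27.0 FPKM in KD morulae and 52.5, 54.5 and 52.5 FPKM in NC morulae. These groups did not overlap either, and the limma adjusted p was 0.145 without and 0.0579 with the block. RNF2, the other catalytic ligase of the complex, had the log2 difference nearest to 0 of the 8 (SE 0.18, limma adjusted p = 1).

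The core genes of Polycomb repressive complex 2 differed in sign in the measured values, and none of them passed. SUZ12, its scaffold, had 19.8, 19.0 and 14.0 FPKM in KD morulae, against 24.6, 28.7 and 20.5 FPKM in NC morulae. All KD values lay below all NC values, with a log2 difference of -0.46 (SE 0.18, limma adjusted p = 0.182). EED, which reads the methylated lysine, also lay lower without overlap, at -0.26 on the log2 scale (limma adjusted p = 0.331). EZH2, the catalytic subunit, differed in the other direction, by 0.24 (limma adjusted p = 0.439), with overlapping groups. EZH2 accordingly made up 58.0 ± 4.51% of the summed FPKM of EZH2, EED and SUZ12 in KD morulae and 47.8 ± 1.98% in NC morulae (SD, n = 3 each). That share was not tested.

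Among the histone demethylases, KDM2B, which brings variant Polycomb repressive complex 1 to CpG islands, had 14.4, 11.1 and 6.31 FPKM in KD morulae, against 25.6, 19.5 and 12.9 FPKM in NC morulae. KD replicate 1 lay above NC replicate 3, and in each numbered pair the KD library was the lower. The log2 difference was -0.83 (SE 0.30), with a limma adjusted p of 0.155 without and 0.0102 with the block. KDM4A, which removes methyl groups from H3K9 and H3K36, had 116, 111 and 73.0 FPKM in KD morulae, against 142, 164 and 118 FPKM in NC morulae. Here the groups did not overlap, though KD replicate 1 and NC replicate 3 nearly met. Its log2 difference was -0.51 (SE 0.20), with a limma adjusted p of 0.183 without and 0.0415 with the block. KDM1A, KDM5A, KDM5B and KDM6B had log2 differences from -0.30 for KDM1A, a demethylase of H3K4, to 0.18 for KDM5A, another.

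The remaining roles showed smaller differences. In the H3K4, H3K36 and H3K79 methylation group the smallest p belonged to ASH2L, a core subunit of the KMT2 complexes, at 26.2, 29.9 and 26.7 FPKM in KD morulae and 25.9, 25.5 and 25.7 FPKM in NC morulae. Its KD values lay just above its NC values without overlap, by 0.10 on the log2 scale (SE 0.14, limma adjusted p = 0.728). The 4 acetyltransferases all had positive log2 differences, with a median of 0.10. The one with the smallest p, KAT2A of the SAGA complex, had 24.2, 30.1 and 19.4 FPKM in KD morulae and 19.7, 20.7 and 19.4 FPKM in NC morulae. KD replicates 1 and 2 stood above the NC libraries and KD replicate 3 was level with the lowest of them, and the limma adjusted p was 0.38. In the remodelling group SMARCA5 had the smallest p, with a log2 difference of -0.32 (SE 0.18, limma adjusted p = 0.327).

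Beside CBX3 stood its HP1 paralogs, neither of which passed. CBX1, or HP1 beta, had 42.5, 44.3 and 37.0 FPKM in KD morulae, against 50.6, 86.3 and 46.9 FPKM in NC morulae. The groups did not overlap, NC replicate 2 stood far above the rest, and the log2 difference was -0.51 (SE 0.22, limma adjusted p = 0.224). CBX5, or HP1 alpha, had 74.4, 91.9 and 65.9 FPKM in KD morulae and 79.9, 105 and 59.4 FPKM in NC morulae. Its groups overlapped throughout, with a log2 difference of -0.05 (SE 0.21). CBX3 made up 19.2 ± 4.14% of the summed HP1 FPKM in KD morulae and 30.0 ± 8.77% in NC morulae (SD, n = 3 each). The ratio of CBX3 to CBX5 did not pass an exact two-sided permutation test of KD against NC within stages, with a mean log2 difference of -0.41 and p = 0.233 (adjusted 0.367 over 22 tests of 11 ratios). Nor did the ratio of CBX3 to CBX1, with a mean log2 difference of -0.19 and an exact two-sided permutation p of 0.467 (adjusted 0.57).

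SUV39H1 was the gene with the largest positive difference in morulae. It had 5.05, 7.47 and 9.28 FPKM in KD morulae and 3.45, 6.09 and 4.04 FPKM in NC morulae. KD replicate 3 and KD replicate 2 were the highest, and KD replicate 1 lay below NC replicate 2. The log2 difference was 0.58 (SE 0.24), with a limma adjusted p of 0.208 without and 0.082 with the block. Its paralog SUV39H2 had a log2 difference of -0.39 (limma adjusted p = 0.422). SETDB1, EHMT1 and EHMT2 had log2 differences between -0.10 and 0.05.

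**Figure D2:**
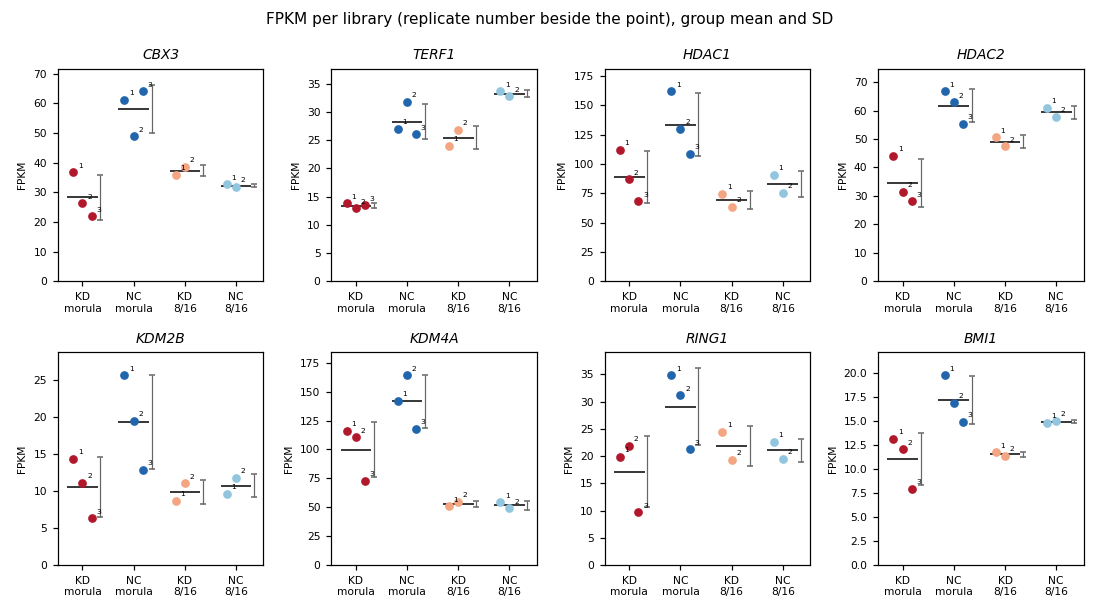
FPKM in KD and NC morulae and in KD and NC 8/16-cell embryos for the 8 genes that were lower in KD morulae in the limma fit with the replicate block; points are libraries with their replicate numbers, lines are group means and bars are SD. TERF1 stands at 13.0 to 13.8 FPKM in KD morulae and 26.1 to 31.8 FPKM in NC morulae.

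The groups of 3 did not overlap for 12 of the 44 genes in morulae. Of these 11 were lower in KD morulae (CBX1, CBX3, EED, SUZ12, BMI1, PCGF6, KDM1A, KDM4A, HDAC2, SMARCA5 and TERF1) and ASH2L was higher. Of all genes tested 23.8% had groups that did not overlap, 15.3% lower and 8.44% higher.

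Over the whole list, 29 of 44 genes had a negative log2 difference in morulae, with a median of -0.10. All genes tested had a median of -0.08, and 57.9% of them were negative. The direction of the list's median depended on the scaling: it was 0.03 after quantile normalization and 0.04 with equal upper quartiles, where the median of all genes moved by 0.12. CBX3, TERF1 and the median of the 8 Polycomb genes stayed negative under both, that median at -0.30 in each with 6 of 8 negative. The 29 further Polycomb genes had medians of 0.19 after quantile normalization and 0.20 with equal upper quartiles. The acetyltransferase median stayed positive. With the RN18S1 level as a covariate the list median was 0.05, and CBX3 and TERF1 had log2 differences of -1.06 and -0.94 (limma adjusted p = 0.332 and 0.31).

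RN18S1, an 18S ribosomal RNA gene that oligo(dT) selection should largely leave behind, was at 9053, 8553 and 11581 FPKM in KD morulae and 2704, 2983 and 8611 FPKM in NC morulae. It was higher in 2 of 3 KD morulae than in any NC morula, with KD replicate 2 just below NC replicate 3. At the 8/16-cell stage it was at 5640 and 5098 FPKM in KD embryos and 3383 and 9367 FPKM in NC embryos, which overlap. In morulae RN18S1 differed between KD and NC by 1.23 on the log2 scale (limma adjusted p = 0.194 without and 0.0386 with the block). The covariate thus varied with the treatment, and the part of RN18S1 in the lower CBX3 and TERF1 levels was not tested separately.

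Single libraries stood apart for many of the genes. KD morula replicate 3 was the lowest of the 6 morula libraries for 22 of 44 genes, against 29.0% of all genes tested. It was also the highest of the 6 for 5 of the 14 cumulus and granulosa markers, VIM at 43.3 FPKM, LUM at 23.4 FPKM, CYP11A1 at 15.4 FPKM, STAR and INHA, and held the highest sum of that list, at 132 FPKM. The part of these markers in the values of KD morula replicate 3 was not tested. NC morula replicate 2 was the highest for 18 of 44, against 17.8% of all genes tested. Without KD morula replicate 3 none of the 44 genes passed and the list median was -0.01, and 5 genes had an unadjusted p under 0.05. TERF1 was then at a limma adjusted p of 0.0965. Without KD morula replicate 1, 3 genes passed: CBX3, HDAC2 and TERF1. With any other single library left out CBX3 missed the threshold. TERF1 also missed it without KD morula replicate 2, NC morula replicate 1 or 3, or any one 8/16-cell library.

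**Figure D3:**
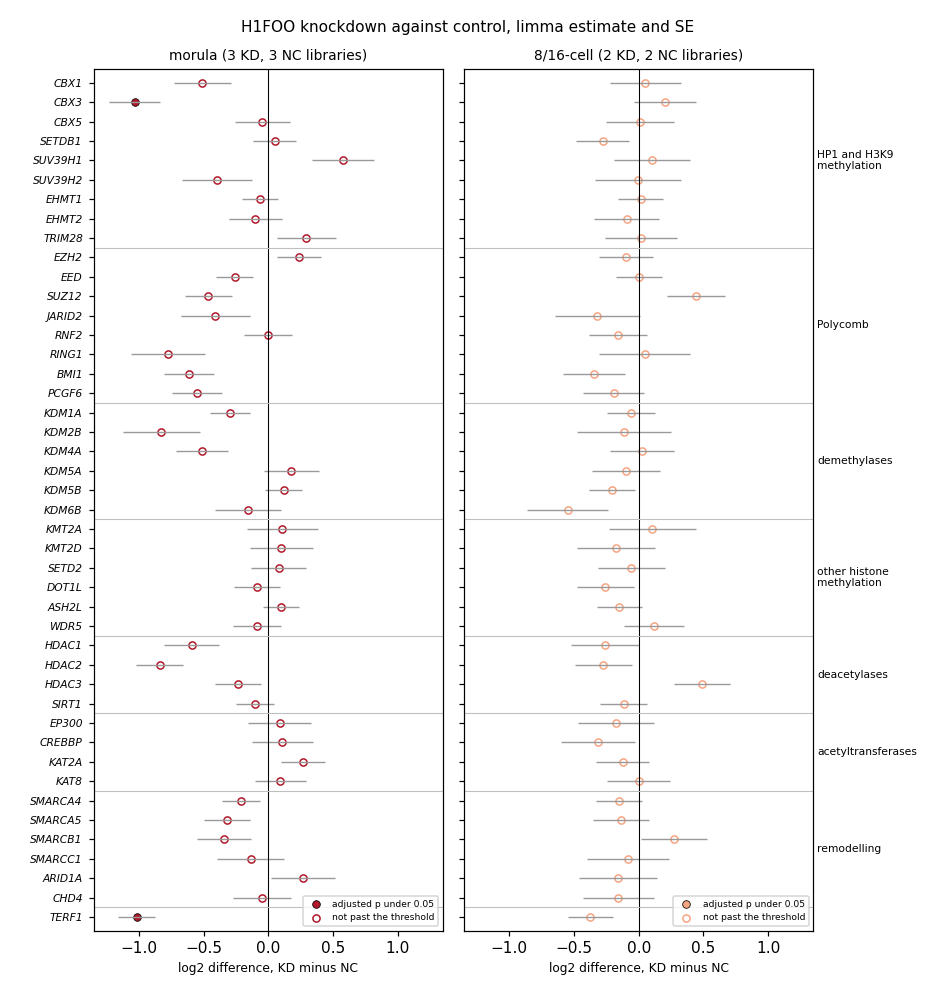
Log2 difference of KD against NC embryos for the 44 genes at the morula and the 8/16-cell stage, by role, with limma standard errors as bars and filled points for genes that passed. CBX3 and TERF1 lie lowest in morulae, at -1.03 and -1.02, and no gene passed at the 8/16-cell stage.

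The same comparison at the 8/16-cell stage asked whether the differences were already there 1.5 days earlier. None of the 44 genes passed with limma. At an unadjusted p under 0.05 there was 1, HDAC3, and all adjusted p-values were 1. Of all 11761 genes 0.017% passed, and 514 had an unadjusted p under 0.05.

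HDAC3 had 19.7 and 14.0 FPKM in KD embryos and 12.9 and 10.2 FPKM in NC embryos. Both KD values lay above both NC values, with a log2 difference of 0.49 (SE 0.22). The sign was the opposite of that in morulae, where HDAC3 was at 11.6, 11.9 and 10.5 FPKM in KD and 14.6, 11.9 and 14.0 FPKM in NC. In each numbered pair of morulae HDAC3 was lower or near level in KD.

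SUZ12 likewise lay higher in KD 8/16-cell embryos, at 22.4 and 21.8 FPKM, against 17.1 and 14.9 FPKM in NC, a log2 difference of 0.44 (SE 0.22). CBX3 had 36.03 and 38.6 FPKM in KD embryos and 32.8 and 31.9 FPKM in NC embryos. Both genes were therefore above NC in each KD library at this stage and below NC in each KD library at the morula stage. The difference between the stages in the KD effect was -1.23 for CBX3 (limma adjusted p = 0.435) and -0.91 for SUZ12 (limma adjusted p = 0.479). It was -0.73 for HDAC3 (limma adjusted p = 0.498) and -0.64 for TERF1 (limma adjusted p = 0.479). No gene of the list passed this interaction test with limma, 4 had an unadjusted p under 0.05, and over all genes tested 0.017% passed.

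TERF1 had 24.0 and 26.9 FPKM in KD 8/16-cell embryos and 33.7 and 32.8 FPKM in NC 8/16-cell embryos. It was lower in KD at both stages without overlap, and its log2 difference here was -0.37 (SE 0.17). HDAC2 had 50.6 and 47.5 FPKM in KD embryos and 61.1 and 57.8 FPKM in NC embryos. HDAC1 had 74.6 and 63.6 FPKM in KD embryos and 90.7 and 75.4 FPKM in NC embryos. For both deacetylases each KD library again lay below each NC library, at -0.27 and -0.26 on the log2 scale, and neither difference passed.

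For the other roles the smallest p at this stage belonged to SETDB1, KDM6B, DOT1L, CREBBP and SMARCB1. SETDB1, the H3K9 methyltransferase recruited by TRIM28, was at 11.0 and 12.4 FPKM in KD embryos and 15.9 and 13.1 FPKM in NC embryos. KDM6B was at 1.27 and 2.45 FPKM in KD embryos and 3.47 and 2.74 FPKM in NC embryos. Both lay lower in KD without overlap, at -0.28 and -0.55 on the log2 scale.

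DOT1L, the H3K79 methyltransferase, was at 18.4 and 21.7 FPKM in KD embryos and 25.4 and 22.9 FPKM in NC embryos. CREBBP, an acetyltransferase that works as a coactivator, was at 8.82 and 12.4 FPKM in KD embryos and 13.4 and 13.1 FPKM in NC embryos. SMARCB1, a core subunit of SWI/SNF complexes, was at 51.6 and 37.6 FPKM in KD embryos and 37.3 and 35.3 FPKM in NC embryos. The KD values of DOT1L and CREBBP lay below and those of SMARCB1 above the NC values, by -0.26, -0.31 and 0.27 on the log2 scale, in each case short of the threshold.

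At this stage 15 of 44 genes had groups of 2 that did not overlap, 11 lower and 4 higher in KD. Of all genes tested 33.2% did so, 13.9% lower and 19.3% higher. Of the list 29 of 44 genes were negative, with a median log2 difference of -0.11, against 0.01 over all genes tested. The list median was -0.14 after quantile normalization and with equal upper quartiles. Here too single libraries stood apart: KD replicate 1 was the lowest of the 4 libraries for 22 of 44 genes, against 32.0% of all genes tested, and NC replicate 1 the highest for 22 of 44, against 33.2%. The KD libraries also held a higher sum of cumulus cell markers, of which 6 of 14 (VIM, CYP11A1, SERPINE2, TNFAIP6, LUM and INHA) were higher in KD without overlap and the other 8, HAS2, STAR, COL1A1 and COL1A2 among them, overlapped or were at 0. VIM was at 31.9 and 41.5 FPKM in KD and 16.4 and 20.3 FPKM in NC. Their part in these values was not tested.

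In morulae and 8/16-cell embryos alike, 18 of 44 genes had negative differences at both stages, or 40.9%, against 28.6% of all genes tested. There were 4 that were positive at both, 11 that were negative only in morulae and 11 that were negative only at the 8/16-cell stage. At each stage alone 29 of 44 were negative, or 65.9%. Of all genes tested 57.9% were negative in morulae and 47.2% at the 8/16-cell stage. The share negative at both stages depends on these shares, so 40.9% against 28.6% does not by itself show agreement between the stages. After quantile normalization 21 of the 44 were negative in morulae and 35 at the 8/16-cell stage. Agreement between the stages was not tested.

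The second question was how these genes changed between the stages in control embryos. In NC embryos 11 of 44 genes passed with limma, 7 higher and 4 lower in morulae. Over all genes tested 30.8% passed, 12.6% higher and 18.2% lower. The genes that rose were CBX1, CBX3, TRIM28, JARID2, KDM4A, KDM6B and SMARCB1, and those that fell were EZH2, RNF2, ASH2L and WDR5. The count of 11 was 2 without NC 8/16-cell replicate 1, 3 without NC 8/16-cell replicate 2 and 5 without NC morula replicate 1. For symbols on several lines the table repeats 1 set of 8/16-cell values beside several sets of morula values. The 8/16-cell and morula columns may thus have been produced separately, and a comparison of the stages includes whatever that changed.

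JARID2, a cofactor that helps bring Polycomb repressive complex 2 to its targets, rose most, to 60.8, 56.6 and 36.5 FPKM in NC morulae, against 16.3 and 19.0 FPKM in NC 8/16-cell embryos. The log2 difference was 1.46 (SE 0.30, limma adjusted p = 0.00561). KDM4A rose to 142, 164 and 118 FPKM in NC morulae, against 54.4 and 49.1 FPKM in NC 8/16-cell embryos. Every morula value of both genes lay far above both 8/16-cell values, and KDM4A (log2 difference 1.42, SE 0.23, limma adjusted p = 0.00178) passed under all 16 alternatives.

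CBX1 rose to 50.6, 86.3 and 46.9 FPKM in NC morulae, against 25.8 and 21.7 FPKM in NC 8/16-cell embryos, a log2 difference of 1.28 (SE 0.25, limma adjusted p = 0.00431). CBX3 rose to the values given above, against 32.8 and 31.9 FPKM, a log2 difference of 0.82 (SE 0.22, limma adjusted p = 0.0179). The third HP1 gene, CBX5, stood at 56.6 and 58.6 FPKM at the 8/16-cell stage, below every NC morula, and its log2 difference of 0.45 did not pass (limma adjusted p = 0.172). All HP1 genes were thus higher in each NC morula than in each NC 8/16-cell library.

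KDM6B rose to 8.11, 6.92 and 4.77 FPKM in NC morulae, against 3.47 and 2.74 FPKM in NC 8/16-cell embryos, a log2 difference of 0.87 (SE 0.29, limma adjusted p = 0.0417). SMARCB1 rose to 75.6, 49.2 and 74.7 FPKM in NC morulae, against 37.3 and 35.3 FPKM, a log2 difference of 0.83 (SE 0.23, limma adjusted p = 0.0221). TRIM28 rose by 0.80 (SE 0.25, limma adjusted p = 0.0357). In each case the stages did not overlap, though KDM6B replicate 3 and SMARCB1 replicate 2 came nearer to the earlier stage than the other morulae.

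RNF2 fell to 12.9, 18.9 and 12.3 FPKM in NC morulae, against 27.0 and 25.4 FPKM in NC 8/16-cell embryos, a log2 difference of -0.82 (SE 0.21, limma adjusted p = 0.0143). WDR5, which presents the H3 tail to the KMT2 enzymes, fell to 33.7, 22.3 and 36.1 FPKM, against 57.8 and 49.1 FPKM, a difference of -0.81 (SE 0.21, limma adjusted p = 0.016). NC morula replicate 2 stood apart in both genes, as the highest for RNF2 and the lowest for WDR5, and every morula lay below the earlier stage.

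EZH2 fell to 48.6, 62.8 and 55.2 FPKM in NC morulae, against 86.7 and 87.4 FPKM in NC 8/16-cell embryos, a log2 difference of -0.65 (SE 0.19, limma adjusted p = 0.0263). ASH2L fell to 25.9, 25.5 and 25.7 FPKM, against 38.6 and 35.6 FPKM, a difference of -0.51 (SE 0.16, limma adjusted p = 0.0315). Both ended below every 8/16-cell library, ASH2L with hardly any spread between morulae. While EZH2 fell, SUZ12 differed by 0.58 (limma adjusted p = 0.0518) and EED by 0.30 (limma adjusted p = 0.184), so that EZH2 made up 47.8 ± 1.98% (SD, n = 3) of the 3 core subunits in NC morulae, against 66.0 ± 2.25% (SD, n = 2) in NC 8/16-cell embryos.

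The stages did not overlap in NC embryos for 25 of 44 genes, 15 higher and 10 lower in morulae. The share over all genes tested was 56.9%, 24.3% higher and 32.6% lower. The list median was 0.13, against -0.07 over all genes tested. After quantile normalization 9 of 44 rose and 3 fell, while over all genes tested 1857 rose and 1957 fell, against 1484 and 2142 with the deposited scaling.

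In KD embryos 9 of 44 genes passed between the stages, 5 higher and 4 lower in morulae. Over all genes tested 20% passed, 5.22% higher and 14.8% lower. The count of 9 was 1 without KD 8/16-cell replicate 1, 2 without KD 8/16-cell replicate 2 and 5 without KD morula replicate 1. JARID2, KDM4A, KDM6B and TRIM28 rose and RNF2 and WDR5 fell, as in NC embryos. DOT1L also rose and SUV39H2 and TERF1 also fell in KD embryos, while CBX1, CBX3, SMARCB1, EZH2 and ASH2L passed in NC embryos and did not pass in KD embryos. Whether those changes differed between the treatments is the interaction test above, which none of the 44 genes passed.

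JARID2 rose to 51.6, 39.1 and 26.0 FPKM in KD morulae, against 11.7 and 16.5 FPKM in KD 8/16-cell embryos, a log2 difference of 1.37 (SE 0.30, limma adjusted p = 0.013). KDM6B rose by 1.26 (SE 0.29, limma adjusted p = 0.0149) and KDM4A by 0.88 (SE 0.23, limma adjusted p = 0.023). DOT1L rose to 37.5, 34.7 and 27.1 FPKM, against 18.4 and 21.7 FPKM, a difference of 0.69 (SE 0.20, limma adjusted p = 0.0365). In JARID2, KDM6B, KDM4A and DOT1L alike KD morula replicate 3 was the lowest of the KD morulae.

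SUV39H2 fell to 1.72, 1.72 and 0.692 FPKM in KD morulae, against 4.60 and 4.04 FPKM in KD 8/16-cell embryos, a log2 difference of -1.19 (SE 0.30, limma adjusted p = 0.0217). In NC embryos it was at 1.78, 2.98 and 1.56 FPKM in morulae, against 5.51 and 3.38 FPKM at the 8/16-cell stage, a difference of -0.81 (limma adjusted p = 0.0648). TERF1 fell by 0.87 in KD embryos (SE 0.16, limma adjusted p = 0.00604), and its difference was -0.23 in NC embryos (limma adjusted p = 0.291). CBX3 differed by -0.42 in KD embryos (limma adjusted p = 0.197), opposite in sign to its rise in NC embryos.

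The stages did not overlap in KD embryos for 21 of 44 genes, 11 higher and 10 lower. Over all genes tested 53.3% did not overlap, 16.6% higher and 36.7% lower. The list median was 0.01, against -0.18 over all genes tested, and it was 0.22 after quantile normalization, which moved the median of all genes by 0.18. With that scaling 7 of 44 genes rose and 3 fell, and over all genes tested 1121 rose and 1027 fell, against 614 and 1741 with the deposited scaling.

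**Figure D4:**
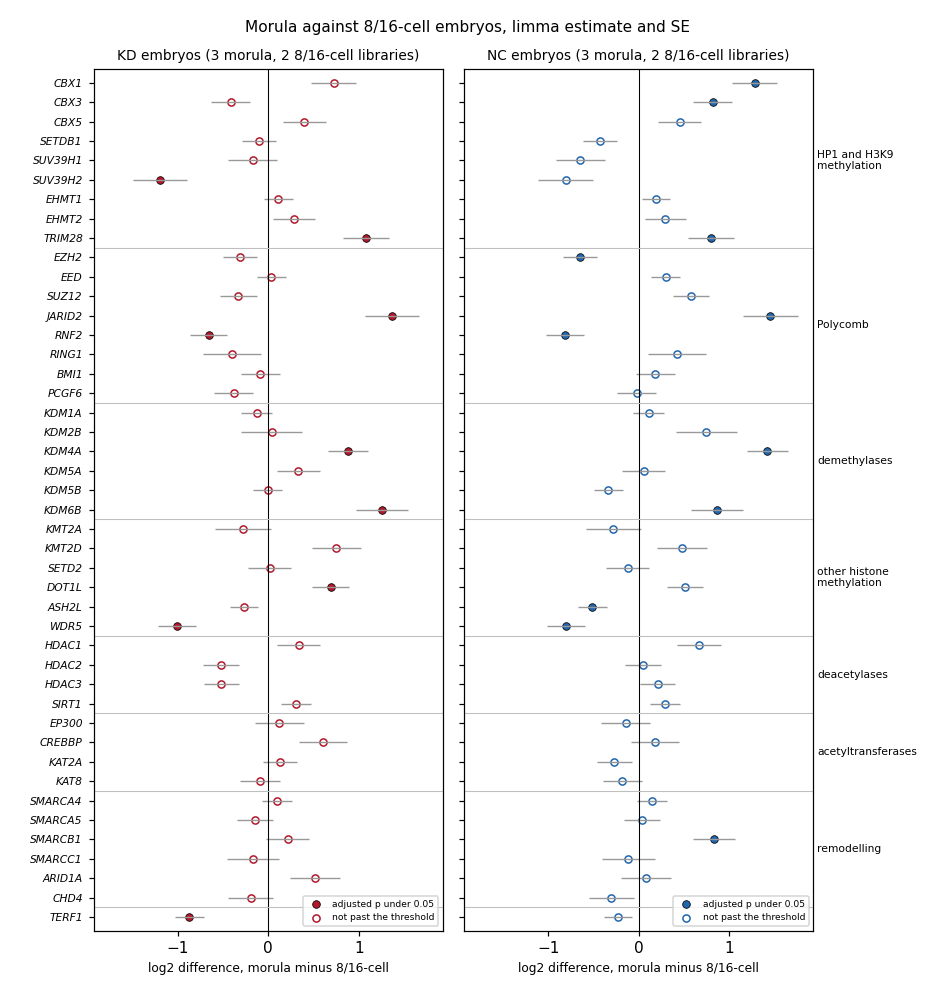
Log2 difference between morulae and 8/16-cell embryos for the 44 genes, in KD embryos on the left and NC embryos on the right, with limma standard errors as bars and filled points for genes that passed. JARID2 stands highest, at 1.37 in KD and 1.46 in NC embryos, and CBX3 is at -0.42 in KD and 0.82 in NC embryos.

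Ratios between paralogs cancel a scaling of a whole library. HDAC2 was at 0.394, 0.362 and 0.412 of HDAC1 in KD morulae and 0.412, 0.483 and 0.509 in NC morulae, against 0.678 and 0.747 in KD 8/16-cell embryos and 0.673 and 0.767 in NC 8/16-cell embryos. Every morula was below every 8/16-cell library. The mean log2 difference of the ratio between stages was -0.75, with an exact two-sided permutation p of 0.01, the smallest that 100 relabellings allow, and an adjusted p of 0.0733 over the 22 tests. HDAC1 made up 65.8 ± 1.67% of the summed FPKM of HDAC1, HDAC2 and HDAC3 in KD morulae and 63.7 ± 2.75% in NC morulae (SD, n = 3 each). In the earlier embryos it was 51.2 ± 0.455% in KD and 53.8 ± 1.79% in NC (SD, n = 2 each).

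The ratio of CBX1 to CBX5 was higher in every morula, at 0.571, 0.482 and 0.562 in KD and 0.633, 0.826 and 0.790 in NC, than in 8/16-cell embryos, at 0.428 and 0.420 in KD and 0.456 and 0.370 in NC. The ratio of CREBBP to EP300, a pair of related coactivators, was likewise higher in every morula, by 0.43 on the log2 scale. Both had an exact two-sided permutation p of 0.01 and an adjusted p of 0.0733. None of the 22 tests reached an adjusted p under 0.05, a level that the smallest p of 0.01 reaches only when several tests share it. For KD against NC within stages the smallest p was 0.0333, for HDAC3 over HDAC1 (adjusted 0.147), where 120 relabellings allow 0.0167.

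**Figure D5:**
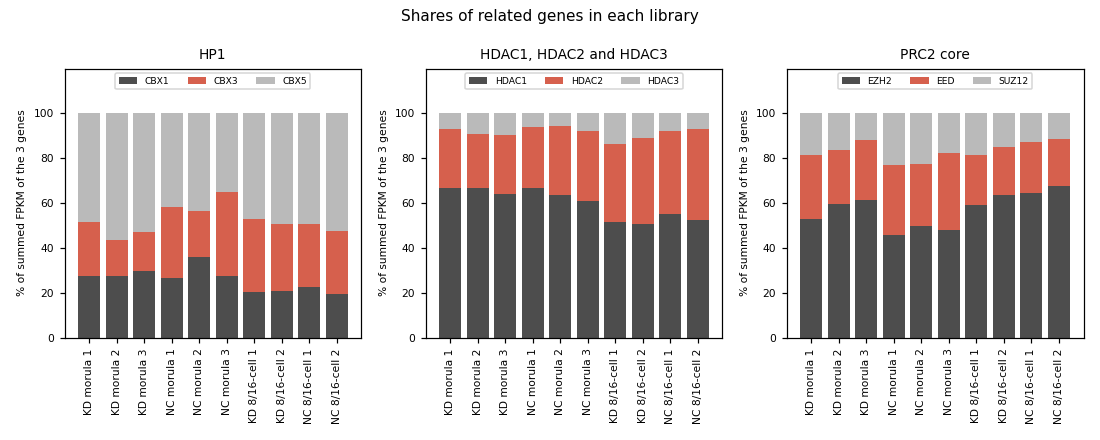
Share of each gene in the summed FPKM of the HP1 genes, the deacetylases HDAC1, HDAC2 and HDAC3 and the core of Polycomb repressive complex 2, in percent, as 1 stacked bar per library. CBX3 holds a mean of 19.2% of HP1 in KD morulae and 30.0% in NC morulae, and HDAC1 holds 65.8% and 63.7% of the sum of HDAC1, HDAC2 and HDAC3 there.

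The wider pathways were followed in 186 further genes of the same roles, of which 176 were tested. In morulae none of the 176 passed with limma (26 at an unadjusted p under 0.05), and their median log2 difference was -0.02, with 92 negative. With the replicate block 6 were higher, among them SCMH1, RCOR1, BRD2, MBD2 and GATAD2B, and 4 were lower (KDM3B, HDAC8, ACTL6A and MTA3), or 5.68% in all, against 11.9% of all genes tested. None passed at the 8/16-cell stage, where none had an unadjusted p under 0.05.

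HDAC8, the class I deacetylase that acts on cohesin, had the smallest adjusted p of these genes in morulae. It was at 25.9, 21.5 and 18.4 FPKM in KD morulae and 52.1, 58.7 and 29.8 FPKM in NC morulae. The groups did not overlap, and NC replicate 3 stood nearest to KD. The log2 difference was -1.02, with a limma adjusted p of 0.0685 without and 0.00889 with the block. SCMH1, a Polycomb repressive complex 1 partner, was at 7.77, 11.7 and 16.7 FPKM in KD morulae and 3.64, 4.37 and 6.88 FPKM in NC morulae, higher without overlap (log2 difference 1.11, limma adjusted p = 0.0724 without and 0.00506 with the block).

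MTA3, a NuRD subunit, differed by -1.04 (limma adjusted p = 0.122), and GATAD2B, another, by 0.79 (limma adjusted p = 0.0775). The H3K9 demethylase KDM3B differed by -0.70 (limma adjusted p = 0.147) and RCOR1, the scaffold of CoREST, by 0.72 (limma adjusted p = 0.156). In the H3K9 group FAM208A, a HUSH complex subunit, differed by -0.50 (limma adjusted p = 0.156) and SMCHD1, which acts in X inactivation, by -0.62 (limma adjusted p = 0.168). None of these 6 reached the threshold without the block.

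Of the other Polycomb genes CBX6, a reader of the Polycomb mark, differed by 0.43 (limma adjusted p = 0.172). The desuccinylase SIRT5 differed by -0.65 (limma adjusted p = 0.147), the bromodomain reader BRD2 by 0.54 (limma adjusted p = 0.146) and EPC1 of the NuA4 acetyltransferase by 0.43 (limma adjusted p = 0.222). The H3K36 methyltransferases ASH1L and NSD2 differed by 0.59 and -0.44 (limma adjusted p = 0.217 and 0.223). The shelterin subunits TERF2IP and ACD, which work in one complex with TERF1, differed by -0.48 and -0.52 (limma adjusted p = 0.136 and 0.252), so none of the other 5 shelterin genes tested passed beside TERF1.

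Between the stages in NC embryos 17 of the 176 rose and 30 fell with limma, 26.7% in all, against 30.8% of all genes tested. HDAC8 rose most, by 2.08 (SE 0.27, limma adjusted p = 0.000776), then L3MBTL2, a partner of PCGF6 in a variant Polycomb complex, by 1.96 (SE 0.29, limma adjusted p = 0.00131), and MTA3 by 1.56 (SE 0.38, limma adjusted p = 0.0113). UHRF1, which reads H3K9 methylation and brings the maintenance DNA methyltransferase to replicated DNA, fell most, with a log2 difference of -2.69 (SE 0.33, limma adjusted p = 0.000527). MBD2 of the NuRD complex fell by 2.04 (SE 0.26, limma adjusted p = 0.000705). In KD embryos 13 rose and 23 fell, 20.5% in all against 20% of all genes tested, of which 10 and 17 also passed in the same direction in NC embryos.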

How the data were processed

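Messenger RNA was selected on oligo(dT) beads and libraries were amplified by PCR, per the labels' protocols, which do not say whether strand was kept. Reads of overlapping or antisense genes (15 of the 44 genes overlap another, among them CBX1 with NFE2L1 and SETDB1 with CERS2, by an ARS-UCD2.0 annotation used for names only) could therefore not be separated. The tools Trimmomatic, HISAT2, Cufflinks and featureCounts and the builds bosTau9 and ARS-UCD1.2 are named, per the submitters' processing notes; versions and steps are not given in the sources used here, nor is how reads that match several paralogs were counted. The values deposited by the authors are FPKM, without counts, so counting error is unknown. The table has 39911 lines and 28781 symbols, of which 81 stand on several lines (11211 lines) and were left out.

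FPKM were transformed to log2(FPKM + 1), which understates changes of low genes. The 11761 genes whose mean reached 1 FPKM were fitted with limma 3.58.1 (R 4.3.3, trended variances, 6 residual and 4.63 prior degrees of freedom) as 4 group means over 10 libraries, with two-sided p-values adjusted by Benjamini-Hochberg over all genes tested. The scripts were tested on simulated data. Ratios of paralogs were compared by exact permutation within strata. Alternatives were minimum means of 5 FPKM or none, a pseudocount of 0.1, other scalings, each stage fitted alone, an RN18S1 covariate, a replicate block and each library left out.

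The replicate numbers were taken to pair the morulae, since a KD and an NC library with the same number departed from their groups together across genes (r = 0.37, 0.325 and 0.312). At the 8/16-cell stage r was 0.0558 and the numbers were not taken as pairs. The 44 genes, their roles and the wider pathway lists were chosen with earlier results of these data known. Values per library are given for genes that passed between KD and NC, the smallest p in each role, the highest and lowest 3 levels and the largest changes between NC stages. RING1, PCGF6, CBX5 and SUV39H1, and the paralog ratios shown, were chosen for the text after their values were seen. A gene of the wider pathway lists that this rule would name is not reported here.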

Additional observations from a re-analysis of the deposited data

How the results depend on the processing

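Every alternative kept the direction of each gene reported as passing. For KD against NC in morulae, 1 of the 44 genes passed with no filter on low values, with a pseudocount of 0.1, after quantile normalization and with equal upper quartiles (13, 12, 9 and 10 at an unadjusted p under 0.05). None passed with limma in morulae fitted alone (9 unadjusted) or with RN18S1 as a covariate (4 unadjusted), 8 passed with the replicate block, and 0 passed with the block without both morulae numbered 1 or both numbered 3, an alternative chosen after seeing the data. Leaving out 1 library gave 0 to 3: TERF1 was lost without KD morula replicates 2 or 3, NC morula replicates 1 or 3, or any 8/16-cell library, and CBX3 passed when KD morula replicate 1 was left out and was lost without each other library.

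Over all genes tested the morula count of 82 became 139 at a minimum mean of 5 FPKM, 6 with no filter, 45 with equal upper quartiles (19 higher, 26 lower), 1398 with the block, and 0 with morulae alone or the RN18S1 covariate (2131 and 1243 unadjusted). With the block it was 0 without both morulae numbered 1 (2449 unadjusted), 393 without both numbered 2 and 18 without both numbered 3. Leaving out 1 library gave 0 to 527, the highest without KD morula replicate 1 and 0 without KD morula replicate 2, NC morula replicate 1 or any 8/16-cell library (1687 to 2405 unadjusted). After quantile normalization 28 were higher and 41 lower. At the 8/16-cell stage 2 became 11 with no filter, 1 with the stage alone, 4 with the covariate and 2 to 9 with 1 library left out. The block, whose numbers were not taken to pair these libraries, changed no call of the 44 genes there. The interaction count of 2 became 32 with the block and 2 to 6 with 1 library left out.

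Between the NC stages 5 of 44 genes passed with the replicate block of numbers 1 and 2 and over all genes tested 2016, and with 1 library left out 2 to 14 and 1406 to 3657, lowest in both without NC 8/16-cell replicate 1. Between the KD stages these were 4 and 871 with the block, and 1 to 10 and 693 to 2698 with 1 library left out, lowest without KD 8/16-cell replicate 1 for the 44 genes and without KD 8/16-cell replicate 2 over all genes tested. KDM4A and CBX1 passed between the NC stages under each of 16 alternatives, JARID2 under 15, and TRIM28, the least steady, under 7. The cause of these shifts was not tested. The block between stages used only libraries numbered 1 and 2, without the morulae numbered 3, and a pairing of numbers across stages was not checked. With 2 or 3 libraries per group and no counts, differences within the spread of libraries were not detectable.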
